A study of Mus musculus with 8 samples.

Results

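The transcript levels of the unstimulated adult mouse left ventricle were read from the 3 control arrays of the study, which were taken from 8 arrays in all. The other arrays entered only a count of repeated values. The control mice were C57/Bl6 littermates that had inherited either the driver or the responder transgene alone, and the labels do not say which of the transgenes each mouse carried. The driver is the αMHC-tTA gene, which makes the tetracycline transactivator in cardiomyocytes, and the responder genes are meant to stay silent without it. The mice were raised on doxycycline until 5 weeks of age, received normal chow for the following 6 weeks, and were 11 weeks old at harvest, as the mice with the active transgenes were. Total RNA of the left ventricle was hybridized to 1 Affymetrix Mouse Gene 1.0 ST array per heart, and the labels call the arrays biological replicates. With n = 3, every SD given is between these arrays and holds both the animals and the measurement.

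The values are deposited intensities on a linear scale, 1 for each of 28440 probe sets. Of these, 21780 carry 1 gene symbol, and taking the brightest probe set of each symbol gave 19933 genes. An intensity is the brightness of a probe set and is not divided by transcript length, and probes differ in how strongly they bind. Among the 875 genes with more than 1 probe set whose brightest was above background, the brightest exceeded the dimmest by a median of 1.79-fold (quartiles 1.22 and 3.52). The order of genes given here is therefore an order of brightness, and no fold between genes is given. Background was set by 1244 chemosensory receptor genes (odorant, vomeronasal, taste and trace amine receptors), which are made mainly by sensory cells. Their median intensity was 18.1, their 95th percentile 58.4 and their 99th percentile 99.7. A gene with a mean over 58.4 is called above the receptor level, and one over 99.7 above the strict level. Of all genes, 68.5% were above the receptor level and 56.2% above the strict level, and counts of list members are to be read against these shares. The brightest receptor, named here after its value was seen, was Olfr558 at 279, 312 and 281.

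The heart muscle cell is built for contraction. Thick filaments of myosin pull on thin filaments of actin, tropomyosin and troponin each time calcium is released from the sarcoplasmic reticulum, and the ATP for the next beat comes almost wholly from mitochondria burning fatty acids, lactate and glucose. Many of these proteins exist in cardiac, skeletal, smooth muscle, embryonic or ubiquitous forms, encoded by separate genes, so that the choice of form marks the muscle and its age. Cardiomyocytes hold most of the volume of the ventricle but share it with endothelial cells, fibroblasts, pericytes and macrophages. In bulk RNA, fewer cells of a type and less RNA per cell cannot be told apart.

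The label of the tissue was checked first on 4 markers. Actc1, cardiac α-actin, read 18560.5, 18556 and 18740.0 in control 1, 2 and 3. Tnnt2, cardiac troponin T, read 15516, 15287 and 15417, and Myh6, the fast adult α-myosin heavy chain, read 13534, 13301 and 13301. All 3 lay among the 14 brightest genes in the mean of the arrays. Pecam1, the adhesion molecule CD31 of endothelial cells, read 1476, 1683 and 1708, far above the receptor level in every heart. The atrial light chain Myl7 read 71.2, 61.2 and 84.4, above the receptor level, as 8 of 11 measured atrial markers were in the mean. The surfactant gene Sftpc of the lung read 35.9, 34.0 and 33.3, below the receptor level in each array. Of the lung and thymus genes 3 of 8 passed that level, with Sftpb the brightest at 74.3, against 68.5% of all genes.

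The 3 arrays resembled each other closely. Across the 13647 genes above the receptor level, which were 68.5% of all, Spearman's correlation was 0.993 for each pair of arrays (across genes, which are not independent replicates). The median coefficient of variation (SD over mean) was 4.75%, and it fell with brightness, from 5.67% for genes between the receptor level and 200 to 2.36% for the 213 genes over 5000. The hearts differed in sex-linked genes. Xist, the RNA that coats the inactive X chromosome, read 2807, 50.8 and 2958, while Eif2s3y on the Y chromosome read 19.1, 681 and 16.0 and Uty 18.7, 647 and 22.1. Control 2 therefore had the pattern of a male heart and the others that of female hearts, which the labels do not state. Many probe sets also held exactly the same number in several arrays. Of 6158 probe sets with a mean over 500, 27.8% repeated a value in at least 2 of the 8 arrays of the series, and 291 did so among the control arrays. Such repeats may understate the spread where they occur, and their cause was not tested. The stated algorithm, MAS5, would rarely give exactly equal values on different arrays, so the way these intensities were summarized is not certain.

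Many of the brightest transcripts belonged to the contractile filaments, the calcium cycle and the mitochondrion. The 100 brightest genes ranged from 19377 to 7639 and held 11.4% of the summed intensity of all genes. They were nearly the same in each heart, since 90 genes were among the 100 brightest of every array and 109 among those of any. Their spread was small, with a coefficient of variation under 5% in 95 of 100. Of the 100, 25 encode nuclear subunits of the respiratory chain and ATP synthase, 14 sarcomere proteins, 9 enzymes of the citrate cycle and its feeder steps, 9 proteins of fatty acid uptake and oxidation, 5 ribosomal proteins, 4 proteins of energy buffering and oxygen storage, 3 glycolytic enzymes and 3 proteins of calcium handling. A further 23 were in no functional list. Neighbours in the order were often not separable. Among the 30 brightest genes, 19 of the 29 neighbouring pairs had arrays that overlapped and 10 did not.

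**Figure D1:**
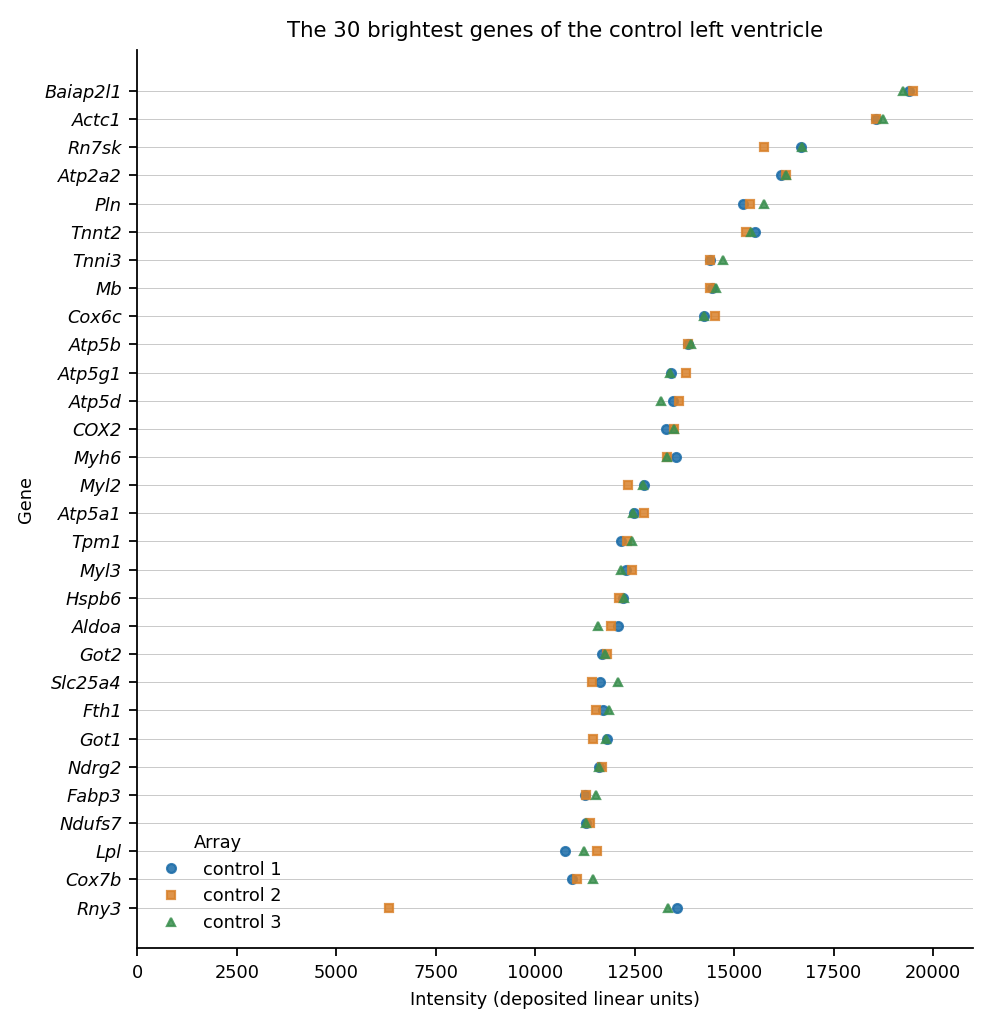
Intensity of the 30 brightest genes (horizontal axis, linear, from 0) in control 1 (circles), control 2 (squares) and control 3 (triangles), ordered by the mean of the arrays. The symbols of a gene lie nearly on top of each other except for Rny3, where control 2 sits at 6323 and the others at 13566 and 13339.6.

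Of the thin filament, Actc1 led at 18619 ± 105 (mean ± SD) and was the second brightest gene in all, followed in the list by Tnnt2 at 15407 ± 115 and the inhibitory subunit Tnni3 at 14510.4 ± 190.3. Tpm1, α-tropomyosin, stood at 12293 ± 135 and the calcium-binding subunit Tnnc1 at 10284 ± 299. Of the thick filament, Myh6 stood at 13379 ± 135 and its ventricular light chains Myl2 and Myl3 at 12594 ± 216 and 12284 ± 135. All 8 of these filament genes were among the 100 brightest. The Z-disc proteins Actn2 (α-actinin) and Myoz2 (a calcineurin-binding protein) read 10651 ± 229.8 and 9876 ± 279. Ttn, the giant spring titin, read 8395 ± 6.30 and Mybpc3, cardiac myosin-binding protein C, 7955 ± 909. Of 43 measured sarcomere genes, 42 were above the receptor level, and the exception was the atrial gene Mybphl at 54.9.

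Calcium return to the sarcoplasmic reticulum was represented by its pump and brake side by side. Atp2a2, the pump SERCA2, read 16172, 16313 and 16297, and Pln, phospholamban, which restrains it, read 15232, 15391 and 15751. They were neighbours in the order of brightness, and Atp2a2 exceeded Pln in every array. Ryr2, the release channel, read 7998 ± 369, the calcium sensor S100a1 7589 ± 202 and the storage protein Casq2 5656 ± 441. Cacna1c, the L-type calcium channel that starts the release, was lower at 2833 ± 101, and the exchanger Slc8a1 stood at 2162 ± 371. Of 19 measured genes of calcium handling, 16 were above the receptor level, and Fkbp1b, Cacnb2 and Sln were not, at 54.8, 53.9 and 45.0.

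All 76 measured nuclear genes of the respiratory chain and ATP synthase were above the strict level. The brightest were Cox6c of cytochrome c oxidase at 14328 ± 163 and the ATP synthase genes Atp5b at 13865 ± 46.7, Atp5g1 at 13528 ± 219.6 and Atp5d at 13419.7 ± 235. Atp5a1 of the same enzyme read 12559 ± 150.2, Ndufs7 of complex I 11304 ± 58.6 and Cox7b 11145 ± 274. Their dimmest members, Ndufv3 and Ndufb3, still read 636 and 639.7. The spread within the complex machinery was low, with a median coefficient of variation of 2.45%, against 4.75% for all genes above the receptor level and 2.36% for genes over 5000. Of the mitochondrial genome, only COX2 and ND3 were measured under 1 symbol, at 13416 ± 118 and 10489.6 ± 398, both among the 100 brightest.

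Genes of fuel supply were bright as well. Fabp3, the heart fatty acid binding protein, read 11355 ± 147, and Lpl, the lipase that frees fatty acids from lipoproteins, 11179.5 ± 396. Cd36, the fatty acid transporter, read 9111 ± 149, and the β-oxidation genes Hadh, Acaa2 and Acadm read 9727, 9598 and 9275. Of 28 measured genes of fatty acid uptake and oxidation, 27 were above the strict level, and the transporter Slc27a6 was not, at 26.4. The malate-aspartate shuttle, which carries reducing equivalents into mitochondria, led the citrate cycle list with Got2 at 11742 ± 65.8, Got1 at 11675 ± 185, Mdh2 at 10830.1 ± 452 and Mdh1 at 9774 ± 159. Citrate synthase, Cs, read 9414 ± 336. In glycolysis, Aldoa (aldolase A) and Eno3 (muscle enolase) read 11853 ± 259 and 10930.3 ± 476, whereas Hk2 and Pgam1 read 1566 and 1314. All 12 measured glycolytic genes were above the strict level.

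Oxygen and energy buffering placed 4 of 11 measured genes among the 100 brightest. Mb, myoglobin, read 14449, 14393 and 14544 and was the eighth brightest gene. The ADP/ATP carrier Slc25a4 read 11636, 11429.5 and 12073, and creatine kinase Ckm 9529.6, 9276 and 9215. The mitochondrial creatine kinase Ckmt2, at 7614 ± 336, ended just outside the 100. Of protein synthesis, 5 of 55 measured ribosomal protein genes reached the 100 brightest, led by Rps6 at 10479 ± 157 and Rplp0 at 9098 ± 150.0. In the translation elongation list 2 of 9 measured genes did, Tpt1 at 10252 ± 247 and Eef2 at 8097 ± 162. Ribosomal protein genes ranged down to Rpl12 at 116. Many of them have near-identical copies in the genome, and 25 of the 80 listed were not measured under 1 symbol, so the levels of this list are uncertain.

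Several of the 100 brightest genes lay outside these groups. Hspb6 and Hspb7, small heat shock proteins of muscle, read 12181 ± 73.6 and 10925 ± 237, and the chaperone Hspa8 10439.5 ± 466. Fth1, the heavy chain of the iron store ferritin, read 11693 ± 158, and Ndrg2 11636 ± 43.1. The following noncoding RNAs were in the 100, namely Rn7sk, a regulator of transcription elongation, at 16386 ± 544, the Y RNA Rny3 at 11076 ± 4118 and the nuclear RNA Malat1 at 8022 ± 283. Baiap2l1, an adaptor of the actin cytoskeleton, held the top place at 19377 ± 131, but its 3 probe sets disagreed, at 19377, 4480.0 and 407, so that its rank rests on the choice of probe set. Among the 24 genes of the 100 with more than 1 probe set the median ratio of brightest to dimmest was 1.16-fold. The highest ratio was 59.1-fold, so the rank of Baiap2l1 is not the only one that may rest on this choice.

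The naming of probe sets limits this ranking. Of the 100 brightest probe sets, 36 carried 1 symbol, 34 several symbols and 30 none. Of the 34 with several symbols, 25 name Gapdh, the glycolytic enzyme often used as a reference, among others, with means from 13321 to 17341, and Gapdh was therefore not ranked. The genes of 13 of 15 mitochondrial transcripts on the list, and of the globins, were likewise not analysed here.

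Most families were led by the form known from the adult ventricle. Of 42 families listed, 35 had a known main cardiac form that was measured. This form was the brightest measured member in 33 of 35, and in 24 of these it was among the 100 brightest genes. In 32 of the 33 the arrays of the brightest member did not overlap those of the next one. The listed main form was not the brightest for the heart-type lactate dehydrogenase Ldhb and the muscle hexokinase Hk2. Ldhb read 7091, 7147 and 6866 and the muscle-type Ldha 8085, 7340.2 and 8019.5, so that Ldha was the brighter in each heart. Hk2 read 1567, 1489 and 1642, below the ubiquitous Hk1 at 4124, 4163 and 4219.

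The myosin heavy chains showed the choice most plainly. Beside Myh6, the slow β-chain Myh7, a form of the fetal heart that rises again in the failing mouse heart, read 815, 1038 and 741. The related Myh7b read 517, 604 and 573. The nonmuscle chain Myh9 stood at 909 and the smooth muscle chain Myh11 at 262. The adult skeletal chains Myh1, Myh2 and Myh4 read 53.6, 59.6 and 45.8, the embryonic chain Myh3 32.4 and the perinatal chain Myh8 70.6. Of these skeletal chains Myh8 and, narrowly, Myh2 passed the receptor level, and none passed the strict one.

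The light chains and thin filament followed the same order. Myl2 stood above the atrial Myl7, at 12594 against 72.3, and Myl3 above the atrial and embryonic Myl4, at 12284 against 357. Tnni3 read 14510.4, while the slow skeletal, fetal form Tnni1 read 83.6 and the fast skeletal form Tnni2 182. Tnnt1 and Tnnt3, the skeletal troponins T, read 188 and 110.5, and Tnnc2, fast troponin C, 69.2. Among the actins, the cytoskeletal Actb read 9799 ± 423, the smooth muscle Acta2 3483 ± 692 and the skeletal Acta1 1926, 1786 and 1952. Acta1 thus lay well above the receptor level, and below Actc1, Actb and Acta2 in every heart.

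**Figure D2:**
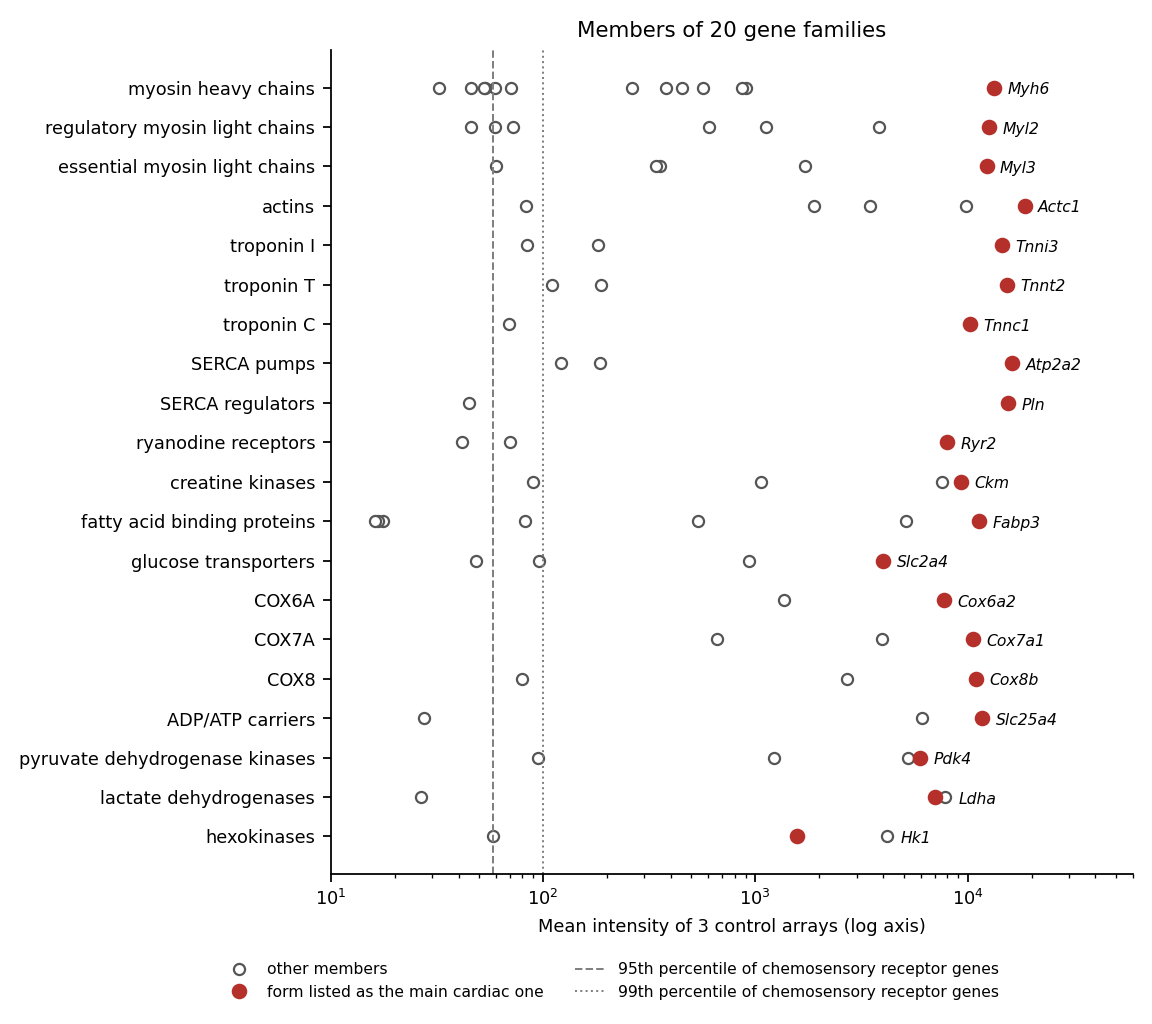
Mean intensity of the 3 control arrays (log axis) for each measured member of 20 gene families. Filled circles mark the form listed as the main cardiac one, open circles the others, and the name beside each row is its brightest member. The main form stands farthest right in 18 of 20 rows, and the dashed and dotted lines mark the receptor level (58.4) and the strict level (99.7).

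Membrane and calcium proteins also had a clear leading form. In the SERCA family Atp2a2 was followed by Atp2a3 at 185 and the fast skeletal Atp2a1 at 122. The skeletal release channel Ryr1 read 69.8 and Ryr3 41.7, and the skeletal calsequestrin Casq1 235. Sln, sarcolipin, which takes the place of Pln in atria, read 42.3, 50.5 and 42.3, below the receptor level in each array. Cacna1c led 10 calcium channel genes, ahead of Cacna1g at 252 and Cacna1s at 186. Gja1, connexin 43 of the working myocardium, read 3287 ± 346, and Gja5, connexin 40 of atria and conduction fibres, 155.

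Subunits of cytochrome c oxidase that exist in a muscle and a ubiquitous form were brighter in the muscle form. Cox7a1 read 10611 and its ubiquitous counterpart Cox7a2 3936. Cox8b read 10965 against 2706 for Cox8a, and Cox6a2 read 7719 against 1358 for Cox6a1. The muscle forms were higher in every array, and the ubiquitous forms were all above the strict level. The same held for the carriers Slc25a4 and Slc25a5, at 11713 and 6094, and for the glycogen phosphorylases Pygm and Pygb, at 8488 and 5548.

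Some families that handle fuel held a second bright member. In the aldolases, enolases and glycogen synthases the second measured member, Aldoc at 54.1, Eno2 at 58.1 and Gys2 at 19.9, was not above the receptor level. Only 2 of 3 listed aldolases and 2 of 3 listed enolases were measured under 1 symbol, so a bright second member may be missing there. Fabp4, found in capillary endothelium and fat, read 5123 ± 379 beside Fabp3, and Fabp5 538. The insulin-dependent glucose transporter Slc2a4 read 4000.1 ± 153 and the basal transporter Slc2a1 931 ± 77.5. Pdk4 and Pdk2, kinases that shut pyruvate dehydrogenase, were the pair that could not be ordered. Pdk4 read 3219, 6494 and 8161 and Pdk2 5005, 5194 and 5545, so that Pdk2 was the brighter in control 1 and Pdk4 in control 2 and control 3. Without control 3 the mean of Pdk2 exceeded that of Pdk4. Of the isocitrate dehydrogenases, Idh2, Idh3g and Idh3b were close together at 9204 ± 352, 9015 ± 109.7 and 9011 ± 171, while the cytosolic Idh1 read 1320.3.

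Of the cell type lists, those of cardiomyocytes, endothelium, endocardium, fibroblasts, pericytes and platelets lay wholly above the receptor level. All 20 cardiomyocyte markers were above the strict level, with a median of 10788, and 16 were among the 100 brightest genes. All 23 endothelial markers were above the strict level too, with a median of 1369. Besides Fabp4, the brightest were Cdh5 (VE-cadherin) at 3289 ± 63.8, the water channel Aqp1 at 3280.4 ± 127 and the TGF-β coreceptor Eng at 2571 ± 107. The VEGF receptors Flt1 and Kdr read 1463 ± 7.54 and 1369 ± 153. Markers of endocardium and lymphatic endothelium passed in 8 of 8, led by Lyve1 at 1269.7 ± 181. The summed intensity of the endothelial list was 33638, 35528 and 35362 in control 1, 2 and 3.

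Fibroblast and matrix genes were above the receptor level in 22 of 22 cases and above the strict level in 19. Dcn, the proteoglycan decorin, read 7855 ± 259.8 and was the single stromal gene of that list among the 100 brightest, followed by Sparc at 4281 ± 439.8. The fibrillar collagens were lower, with Col1a1 at 449.8 ± 60.3, Col1a2 at 423 ± 30.1 and Col3a1 at 326 ± 57.2. Postn (periostin) and Lox (lysyl oxidase), both known to rise in scar formation, read 752 and 84.4. Of 16 markers of pericytes and smooth muscle, 15 were above the strict level. The pericyte genes Abcc9 and Rgs5 read 4186 ± 263 and 2719.6 ± 91.7. Of the contractile smooth muscle genes, Myh11, Tagln and Cnn1 read 262, 188 and 97.4, but the smooth muscle actin Acta2 read 3483 ± 692. Des, desmin, is on this list but is also abundant in cardiomyocytes.

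**Figure D3:**
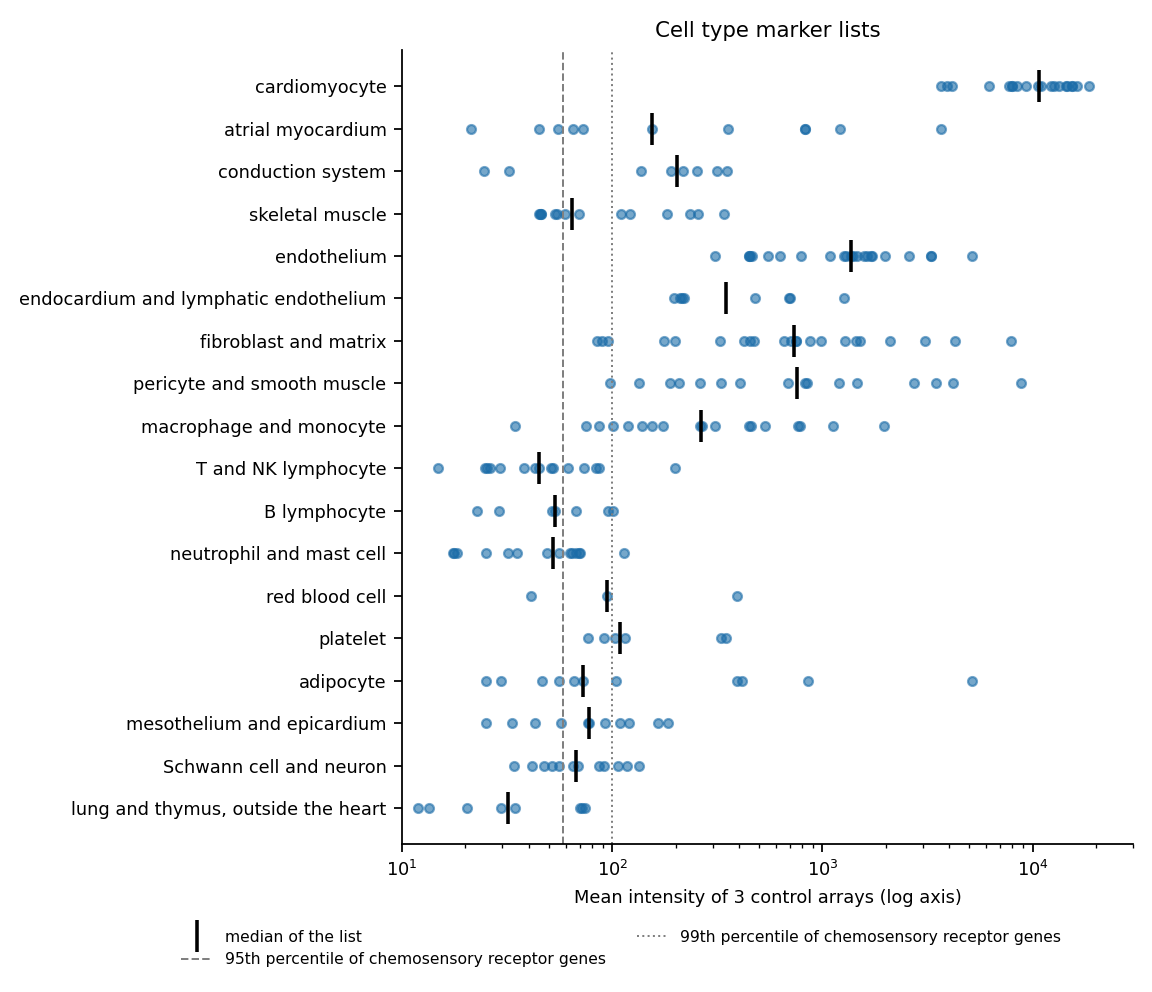
Mean intensity of the 3 control arrays (log axis) for the measured markers of 18 cell type lists, 1 point per gene, with a bar at the median of each list. The cardiomyocyte, endothelial, stromal and pericyte lists lie wholly to the right of the receptor level (dashed, 58.4), and the lung and thymus list lies wholly to the left of the strict level (dotted, 99.7).

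Most macrophage genes were above background, and most markers of other leukocytes were not above the strict level. Of 18 macrophage and monocyte markers 17 were above the receptor level and 15 above the strict level, led by the lysozyme Lyz2 at 1969 ± 58.0 and the complement genes C1qb and C1qc at 1122 ± 28.3 and 783 ± 16.1. Mrc1 and Cd163, known from resident macrophages, read 448 and 262, while Ccr2 of recruited monocytes read 34.1, 38.8 and 30.7, below the receptor level in each array. T and NK lymphocyte markers passed the receptor level in 5 of 15 and the strict level in 1, which was Thy1, a gene fibroblasts also express. The T cell receptor subunits Cd3d and Cd3g read 26.1 and 29.3, below the receptor level, whereas Cd3e, Cd4 and Cd8a read 86.2, 73.0 and 61.4, above it. B lymphocyte markers passed the receptor level in 3 of 7 and the strict level in 1 (Cd79b at 100.4). Neutrophil and mast cell markers passed them in 6 of 14 and in 1 (Kit at 114). By comparison, lung and thymus genes, which stand for tissue outside the heart, passed the receptor level in 3 of 8 and the strict level in 0 of 8.

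Platelet genes passed the receptor level in 6 of 6 and the strict level in 4, with Ppbp and Pf4 at 346 and 329.7. Of 12 listed red blood cell genes only 3 were measured. Of these, 2 passed the receptor level and 1 the strict level, the erythroid heme synthase gene Alas2 at 392. Platelets and red cells are part of blood, and how much of it was left in the tissue was not tested. Adipocyte markers passed the strict level in 5 of 11, against 56.2% of all genes, and the defining gene Adipoq read 27.2, 26.4 and 21.7 and Lep 46.3, below the receptor level. Markers of mesothelium and epicardium passed the receptor level in 7 of 11 and the strict level in 4, against 68.5% and 56.2% of all genes. The epicardial genes Wt1 and Tbx18 read 185 and 164, and Upk3b of mesothelium 116, 106 and 55.7. Schwann cell and neuron markers were dim, with Cdh19 the brightest at 134. Of 10 measured genes of blood plasma and liver proteins, 4 were above the strict level, namely Trf at 562, Apoa2 at 139.8, Apoa1 at 127 and Ahsg at 112. Alb and Ttr were below the receptor level at 42.2 and 45.0.

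Atrial, conduction and skeletal muscle genes covered a wide range of levels. Atrial markers passed the receptor level in 8 of 11, against 68.5% of all genes. Bmp10, Sln and Mybphl did not, at 21.2, 45.0 and 54.9, while the atrial light chains Myl7 and Myl4 did, at 72.3 and 357. Kcnj3 and Stard10 of the same list read 1209 and 829. Nppa, atrial natriuretic peptide, read 3693, 4096 and 3185 and Nppb, its ventricular relative, 2569, 1684 and 1516, both present in every heart at high brightness. Of the conduction system, the pacemaker channel Hcn4 and the transcription factor Tbx3 read 218 and 352, and the sinus node factors Shox2 and Isl1 24.4 and 32.3, below the receptor level. Skeletal muscle markers passed the strict level in 6 of 14, against 56.2% of all genes. The brightest of them, Myl1 and Mybpc2, read 339 and 256, and the fast muscle genes Myh4, Mylpf and Pvalb lay below the receptor level at 45.8, 45.7 and 44.9.

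The transcription factors that define heart muscle lay below the 100 brightest genes and mostly above the middle of all genes. The median of the list was 721, against 134 over all genes. Of the list, 0 were among the 100 brightest and 30 of 31 were above the strict level. Mef2a read 3575 ± 83.4, Tbx20 2573 ± 89.5, Gata6 1918 ± 75.8, Gata4 1274 ± 119.8 and Nkx2-5 1144 ± 73.9. The brightest and most variable of the list was Ppargc1a, the coactivator PGC-1α of mitochondrial genes, at 3031, 4519.7 and 5766. Its partner Ppara, the receptor that switches on fatty acid oxidation, read 1265, 1584 and 1771, in the same order of the hearts. Tbx5, of the left ventricle and atria, read 829.8 and Hand1 119.6.

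Of 29 listed genes that control contraction and hormones, 20 were measured, and 20 of these were above the receptor level and 19 above the strict level. Chrm2, the muscarinic receptor of the vagus, read 3800.1 ± 451, the natriuretic peptide convertase Corin 4035 ± 151 and the kinase subunit Prkar1a 4173 ± 297. Adcy6, a main adenylyl cyclase of the heart, read 1692, 1779.8 and 1787 and Adcy5 622. Bcat2, Foxo3, Pink1, Agtpbp1, Mccc1, Akap7, Slc25a42 and Pcx had coefficients of variation from 2.22% to 6.92%. Bcat2, which starts the breakdown of branched chain amino acids, read 1688, 1686 and 1623, the transcription factor Foxo3 899.5, 938 and 836, Pink1 3485, 3335 and 3270.0 and Agtpbp1 2902, 3138 and 3334. Mccc1, Akap7, Slc25a42 and Pcx read 1479, 733, 697 and 374. Pgf, the gene of the growth factor PlGF, read 211, 349 and 387 and Rgs4 209.5, 277 and 282, lowest in control 1 for both and with larger coefficients of variation of 29.3% and 15.8%. The array cannot tell the native gene from a transgene that shares its sequence.

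Cardiac microRNAs are partly made from introns of the myosin genes, and the study is about miR-182. The mature sequences are shown because their seeds, in capitals (bases 2 to 8), group them. They are from RefSeq (GRCm38.p6).
mmu-miR-208a-3p: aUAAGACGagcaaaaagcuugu
mmu-miR-208b-3p: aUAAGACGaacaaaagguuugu
mmu-miR-499-5p: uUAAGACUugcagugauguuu
mmu-miR-182-5p: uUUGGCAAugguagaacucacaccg
mmu-miR-96-5p: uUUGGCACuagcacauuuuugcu
mmu-miR-183-5p: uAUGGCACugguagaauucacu

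miR-208a-3p and miR-208b-3p share the seed UAAGACG, and the seed of miR-499-5p, UAAGACU, differs from it in its last base. The seeds of miR-182-5p and miR-96-5p, UUGGCAA and UUGGCAC, also share all but the last base. In GRCm38.p6, miR-208a-3p lies at chr14:54949072-54949093 on the minus strand, within the span of Myh6, and miR-208b-3p at chr14:54975710-54975731 on the same strand, within Myh7. miR-499-5p lies at chr2:155622893-155622913 on the plus strand, within Myh7b. miR-182-5p (chr6:30165962-30165986), miR-96-5p (chr6:30169506-30169528) and miR-183-5p (chr6:30169711-30169732) lie together on the minus strand of chromosome 6.

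Probe sets named for microRNA genes read RNA that holds the hairpin and are no measure of the mature microRNA. The probe set of Mir208a read 201, 196 and 246, above the strict level in every heart, beside its bright host Myh6. That of Mir499 read 28.1, 28.1 and 37.3, below the receptor level, with its host Myh7b at 565. Mir182 read 16.2, 12.9 and 14.8, Mir183 10.1, 9.40 and 9.60 and Mir96 20.4 in all 3 arrays, so the primary RNA of this cluster was not distinguished from background. Over all 300 genes with a microRNA name, 34.3% were above the receptor level, with a median intensity of 33.4. They include the host genes Mir100hg, Mir99ahg, Mir670hg and Mir17hg, which are not themselves microRNA genes. Of the 300, 271 matched the sequence table, and Mir208b was not measured.

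Motifs of muscle transcription factors were searched in the promoters. Windows of 250 bases before to 50 after the start, from RefSeq (GRCm38.p6), were found for 36 of the 43 measured sarcomere genes. The CArG box, bound by serum response factor, was searched on both strands and was in 8 of 36 (22.2%), against 1.63% of the 10835 promoters of genes above the receptor level and 1.81% of all 27025 promoters in the table. The 8 were Acta1, Actc1, Fhl2, Ldb3, Myl3, Myl7, Myom1 and Nebl. The MEF2 site was in 6 of 36 (16.7%), against 2.19% and 3.70%, namely in Fhl2, Mybpc3, Myoz2, Synpo2l, Ttn and Xirp2. Myl7 holds the box and yet was dim at 72.3. Among 64 promoters of respiratory chain genes, none had either motif, against the 1.63% and 2.19% of genes above the receptor level. AAGGTCA on either strand, a core of the sites of estrogen-related receptors, was in 7 of the 64 (10.9%). It was in 4.02% of promoters of genes above the receptor level, 5.38% of all promoters and 7.23% of those of the 100 brightest genes. CCAAT, on either strand, was in 54.2% of 83 promoters of the 100 brightest genes and 41.6% of those above the receptor level. TATAAA, searched 40 to 20 bases before the start on the strand of the gene, was in 1.20% and 1.78%. The motifs were counted separately, so that overlapping stretches may count for more than 1. A match of letters is a description and does not show that a factor binds.

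A small group of genes differed between the 3 hearts. Of the 13647 genes above the receptor level, 61 (0.447%) had a highest array at least 2 times the lowest. They held 4 genes of the X and Y chromosomes, Xist, Eif2s3y, Uty and Kdm5d, and 19 genes of small RNAs. Their highest value was in control 3 for 38 of the 61, in control 2 for 12 and in control 1 for 11. Of all genes above the receptor level, 29.7%, 32.1% and 38.2% were highest in control 3, 2 and 1. The count of 38 includes small RNA genes, which are described below. Without control 1, 2 or 3 the count was 36, 29 or 27, but with fewer arrays the ratio of highest to lowest cannot rise.

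Apart from Xist and the Y-linked genes, Nr4a3, an orphan nuclear receptor induced by stress and adrenergic signals, varied most. It read 65.8, 240.1 and 728, highest in control 3, while its relatives Nr4a1 (326, 233 and 298) and Nr4a2 (109, 136 and 137) differed less. Atf3, another early response gene, read 186, 236 and 399.7, but Fos and Egr1 were even, at 68.3, 66.8 and 66.8 and 154, 138 and 151. C7, a complement component, was high in control 2, at 122, 624 and 131. Agt, angiotensinogen, was high in control 3, at 201, 354 and 932. Kdm5d read 22.0, 166 and 26.1, high in control 2 as the Y-linked Eif2s3y and Uty were. The other measured Y-linked genes, Zfy1, Usp9y and Zfy2, were below the receptor level in every array, control 2 included.

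**Figure D4:**
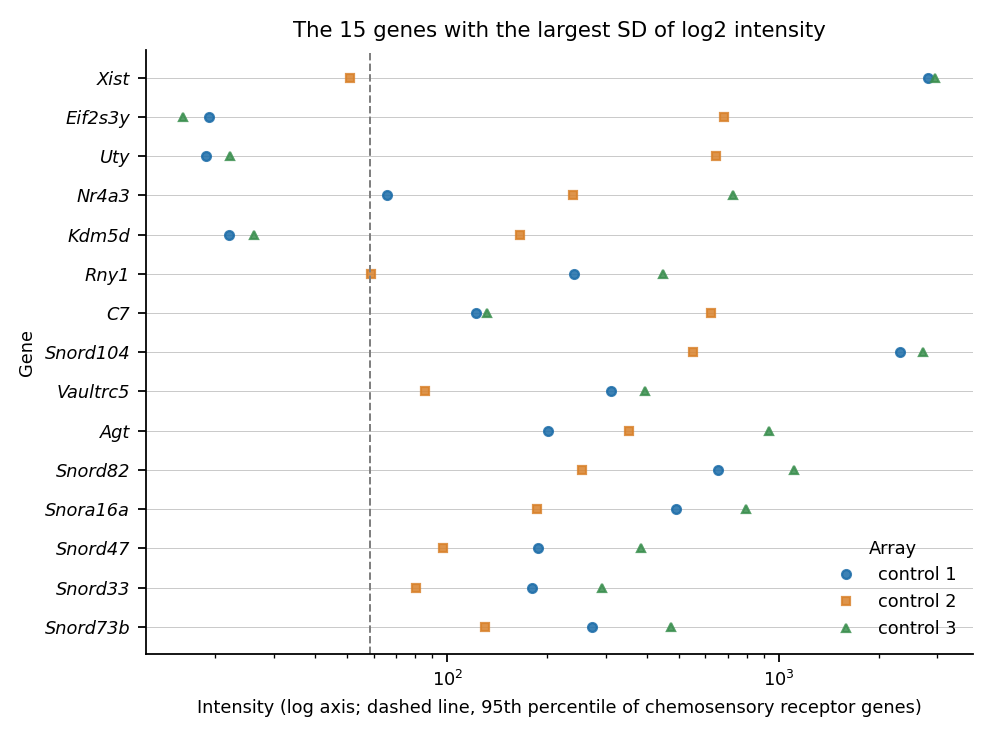
Intensity (log axis) in control 1 (circles), control 2 (squares) and control 3 (triangles) of the 15 genes above the receptor level with the largest SD of log2 intensity. Control 2 stands alone in the X- and Y-linked genes and is lowest in the small RNA genes, whereas Nr4a3 and Agt are highest in control 3.

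Some metabolic regulators varied as well. Pdk4 was lowest in control 1, and so were the metallothioneins Mt2 (2639, 6160.2 and 6332) and Mt1 (2814, 3907 and 4112) and the glucocorticoid target Fkbp5 (436, 610.2 and 781). Of 17 measured genes of the fasting and glucocorticoid list, 11 were lowest in control 1 and 13 highest in control 3, against 36.0% and 29.7% of genes above the receptor level. In these and the other counts and shares by array, a tie went to the lower-numbered control. Cebpd, at 74.8 in both control 1 and control 2, was so counted for control 1. Bdh1, a ketone body enzyme, fell from control 1 to control 3, at 1908, 1220.2 and 729. Of 16 clock genes, Nr1d1 read 1465, 2982 and 2822, Ciart 557, 1057 and 872 and Arntl 62.0, 100.2 and 154, all lowest in control 1. Over the list, 7 of 16 were lowest in control 1, 0 in control 2 and 9 in control 3. The shares of all genes above the receptor level were 36.0%, 28.3% and 35.6%, so the count for control 1 was near its share. Per3, at 534, 479 and 319.9, and Dbp, at 1701, 1953 and 1477, were lowest in control 3. The time of harvest and the feeding state are not in the labels, and their part in these differences was not tested.

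Many small RNA genes shared an order of the hearts. This set (small nucleolar, Cajal body, Y, vault and U12 RNAs and the snoRNA host Gas5) was put together after its values had been seen, and its counts are a description. Of 63 measured, 47 were above the receptor level. They were lowest in control 2 in 43 of 47 and highest in control 3 in 41 of 47, against 28.3% and 29.7% of all genes above that level. In 37 of 47 the order was control 3 over control 1 over control 2, which 11.8% of all genes above the level had. Their median coefficient of variation was 29.6%. Snord104 read 2324, 549.9 and 2717, Rny1 241, 59.0 and 447, Vaultrc5 313, 85.6 and 393, Snora16a 489.8, 187 and 794 and Rny3 13566, 6323 and 13339.6. Snord82, Snord47, Snord33 and Snord73b, with means of 675, 223, 185 and 292, were lowest in control 2 and highest in control 3. Gas5, a long transcript whose introns hold several of these RNAs, read 406, 207 and 628, lowest in control 2 too. Control 2 was also the heart with the male pattern. Whether that has a part in the shift was not tested. Within the set, Snord55 varied little, at 277, 261 and 277.

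**Figure D5:**
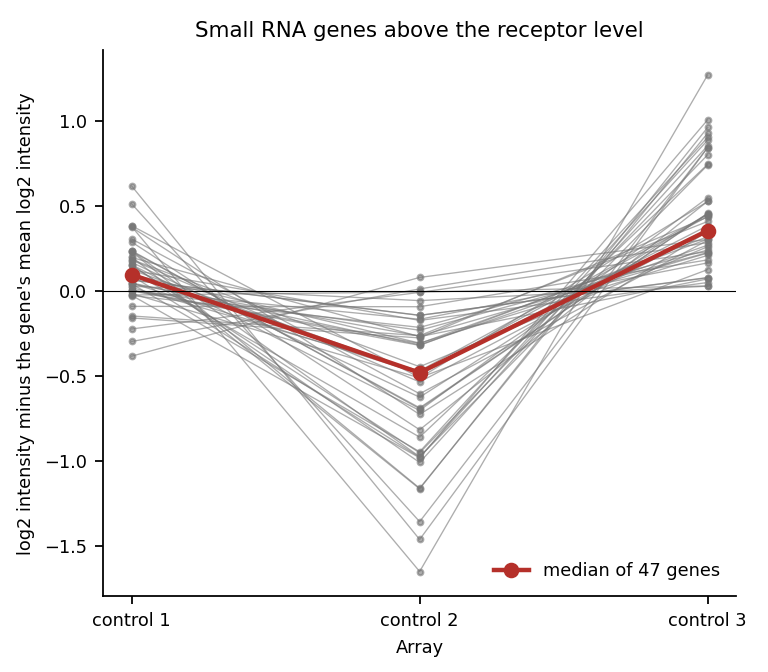
Log2 intensity of 47 small RNA genes in each control array minus the mean of the gene over the arrays, with 1 grey line per gene and the median of the genes in red. The median lies at 0.10 in control 1, -0.48 in control 2 and 0.36 in control 3.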

How the data were processed

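RNA of the left ventricle of 3 control mice was read on Mouse Gene 1.0 ST arrays. The deposited values are linear intensity, 1 per probe set, which the authors obtained with the MAS5 algorithm and global scaling, according to the methods and the submitters' processing notes. The median intensity of the control arrays was 112.8, 112.4 and 111.1, and no further normalization was applied. The genome build of the array annotation is not given in the sources used here. Of 28440 probe sets, 23398 have a gene name, 1618 of them several symbols, and those and the 5042 without a name were not ranked. Symbols were updated through the gene ID for 21689 of 21780. The brightest probe set of a symbol stood for the gene. Means, SDs, ranks and counts over 78 gene lists were computed with Python 3.11.15, pandas 2.3.3 and numpy 2.4.6. The number of arrays limits the precision. No test was run, since there is 1 group. The arithmetic was tested on simulated data. The text names the 30 brightest genes, the leading members of each list and the 15 genes with the largest SD of log2 intensity. The members, lists and rules were chosen with earlier results of these data known. The other 5 arrays of the series were used only to count repeated values.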

Additional observations from a re-analysis of the deposited data

How the results depend on the processing

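All 9 results (the counts of sarcomere, respiratory chain, ribosomal protein and fatty acid genes among the 100 brightest, the genes above the receptor level, the intensity of the 100th gene, the families led by their main form, the median coefficient of variation and the genes varying over 2-fold) were recomputed with quantile normalization, division of each array by its median, a geometric mean, the mean over all probe sets of a symbol, and each array left out in turn. A count could move by 1.5 times and the 100th intensity by the spread between arrays. The limit for the median coefficient of variation was the spread between the fits without 1 array. Of 73 values, 67 stayed within these limits. The others came from leaving out 1 array. The median coefficient of variation was then between 3.59% and 4.07%, and the genes varying over 2-fold numbered between 27 and 36. With fewer arrays the ratio of highest to lowest cannot rise and an SD tends to be smaller. These falls therefore do not show a dependence on any 1 array. Genes above the level numbered 11205 with the strict level and 10700 with the median intensity of the arrays as the level. The genes varying over 2-fold numbered 42 without small RNA genes and 57 without genes of the X and Y chromosomes, both chosen after seeing the data. No paired analysis was possible because the results describe 1 group and come from no test. The brightness of probes, values repeated between arrays and probe sets with several symbols or none limit the ranking, and with 3 arrays an SD is itself uncertain.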
